A study of Mus musculus with 4 samples.

Results

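The 7 genes of the Jun and Fos families, Jun, Junb, Jund, Fos, Fosb, Fosl1 and Fosl2, were compared between untreated and TGFβ-exposed Py2T cells. They were taken by symbol from the array's probe-to-gene table, with the brightest probe set that carries only that symbol standing for the gene. All 7 were found, each with 1 probe set, among 19938 genes so named. Py2T is a mouse breast cancer line derived from a mammary tumour of an MMTV-PyMT transgenic mouse, and it undergoes an epithelial-mesenchymal transition under TGFβ. One group of 2 Affymetrix arrays came from untreated cultures and the other group of 2 from cultures given 2 ng/ml TGFβ for 5 days, all in medium with serum. The labels name the samples biological replicates without saying how the cultures were kept, and the p-values then cover only the variation among these 4 samples. Every value is an RMA log2 expression value, on which a step of 1 is a 2-fold step. In RNA from a whole culture, a smaller share of cells with a transcript and less transcript per cell cannot be told apart.

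AP-1 is a dimer of basic leucine zipper proteins. Jun proteins pair with each other or with Fos proteins, whereas Fos proteins need a Jun partner, and the dimers bind the sequence TGANTCA at promoters and enhancers. Fos, Fosb, Jun and Junb are immediate early genes, transcribed within minutes of a growth factor or stress signal through serum response factor and MAP kinases, while Jund is expressed more steadily. Fosl1 and Fosl2, which encode Fra-1 and Fra-2, lack the strong activation domains of Fos and Fosb. TGFβ acts in part through Smad proteins that bind DNA beside AP-1, and Fra-1 is known for its part in the invasive behaviour of breast cancer cells.

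The promoters of Fosb and Junb, the members that rose, are shown with those of Fos and Jun, the best known member of each family. RefSeq windows (build GRCm38.p6) were matched for 6 members, all but Fosl1, and the 250 bases before the annotated start are given 5′ to 3′ on the gene's strand. The Fosb window is chr7:19310046-19310295 and the Junb window chr8:84978749-84978998, both on the minus strand. The Fos window is chr12:85473640-85473889 on the plus strand and the Jun window chr4:95052223-95052472 on the minus strand. Capitals mark matches to TGACG, the core of a cyclic AMP response element, and to TGACNTCA, the whole element with any base in its middle, which contains TGACG where that base is G.
Fosb: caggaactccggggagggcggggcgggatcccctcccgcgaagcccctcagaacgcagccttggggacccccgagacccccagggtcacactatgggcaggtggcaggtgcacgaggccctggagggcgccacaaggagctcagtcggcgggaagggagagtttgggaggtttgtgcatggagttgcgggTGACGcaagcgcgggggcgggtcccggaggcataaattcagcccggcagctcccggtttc
Junb: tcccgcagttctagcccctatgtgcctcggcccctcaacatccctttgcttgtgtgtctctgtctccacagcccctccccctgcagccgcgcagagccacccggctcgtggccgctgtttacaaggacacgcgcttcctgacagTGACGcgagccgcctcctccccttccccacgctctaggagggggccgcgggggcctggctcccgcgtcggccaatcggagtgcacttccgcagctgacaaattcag
Fos: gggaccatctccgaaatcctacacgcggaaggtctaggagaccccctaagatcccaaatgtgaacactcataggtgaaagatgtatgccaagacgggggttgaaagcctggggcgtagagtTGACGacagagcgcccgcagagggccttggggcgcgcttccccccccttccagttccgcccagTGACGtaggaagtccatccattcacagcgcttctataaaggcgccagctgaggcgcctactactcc
Jun: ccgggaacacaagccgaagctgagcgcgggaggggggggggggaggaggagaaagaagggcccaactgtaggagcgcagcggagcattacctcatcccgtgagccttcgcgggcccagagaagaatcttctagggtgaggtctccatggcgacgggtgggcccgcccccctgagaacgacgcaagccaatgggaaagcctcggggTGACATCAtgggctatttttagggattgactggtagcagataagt

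TGACG, searched on both strands, was found in 3 of the 6 member windows (Fosb, Junb and Fos) and in 17.8% of 32851 windows of the same length. In Fosb it lay 60 to 56 bases before the start, in Junb 106 to 102 bases, and in Fos at 129 to 125 and at 66 to 62 bases. TGACNTCA was found in the Jun window, 45 to 38 bases before the start, and in 7.49% of all windows. TGANTCA (6.75% of all windows), the CArG box bound by serum response factor (1.47%), CAGACA of Smad-bound elements (17.1%) and GGAATG of TEAD sites (12.6%) were in 0 of the 6 windows. Only the 250 bases before the start were searched, so these counts do not show that the genes lack such sites further upstream. GGGCGG, the GC box, was in the windows of Jun, Fos, Fosb and Fosl2 and in 32.7% of all windows, and TATAAA in that of Fos and in 12.4%. The Jund and Fosl2 windows held none of the capitalised motifs.

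The keratin genes Krt8 and Krt18, markers of luminal epithelium, read 13.48 to 13.61 and 13.21 to 13.34 over the 4 arrays, above the array median in both groups. Of 11 epithelial markers 0 rose and 7 fell after TGFβ, and of 11 mesenchymal markers 7 rose and 1 fell. The shares called were 63.6% and 72.7%, against 13.6% of all genes. The mesenchymal marker that fell was Cdh2 (-1.42, adjusted p = 0.00593 in limma), and Vim was not called (0.19, adjusted p = 0.209 in limma). Markers of endothelium (6 of 6) and of adipocytes (5 of 5) had both group means under 7, close to the array median of 6.74 to 6.76, as had 6 of 8 leukocyte markers and 4 of 9 markers of fibroblasts and pericytes. The mean level of the leukocyte markers was 6.24 to 6.47 in untreated and 6.08 to 6.22 in TGFβ arrays, and Ptprc lay between 5.49 and 5.57 on every array. The macrophage marker Cd68 read 9.63 and 8.87 in untreated and 7.60 and 8.33 in TGFβ arrays, groups that did not overlap (-1.29, unadjusted p = 0.00721 and adjusted p = 0.0518 in limma). Csf1r, the receptor for macrophage colony-stimulating factor, read 7.90 and 7.35 in untreated and 7.08 and 7.27 in TGFβ arrays (-0.45, adjusted p = 0.204 in limma). The mean level of the fibroblast and pericyte markers was 6.48 to 6.51 in untreated and 6.64 to 6.81 in TGFβ arrays, with 2 of 9 called higher (Pdgfrb and Col1a1). No endothelial, leukocyte or adipocyte marker was called by limma, with unadjusted p under 0.05 for 0, 1 and 1 of them. The part of these shifts in the results below was not tested.

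Of the 7 Jun and Fos genes, Fosb and Junb rose under TGFβ, Jund and Fosl2 fell slightly, and Jun, Fos and Fosl1 did not pass the test. Fosb was 4.27-fold and Junb 1.95-fold higher, while the falls of Jund and Fosl2 were 1.37-fold and 1.33-fold. A call means an adjusted p under 0.05 in limma, with adjustment over all 19938 genes. The 2 members called higher compare with 6.49% of all genes, the 2 called lower with 7.15%, and the 4 called in either direction with 13.6%. The groups did not overlap in 5 of the 7 members and in 52.6% of all genes. The median difference of the family was -0.28, against 0.0097 over all genes. The split within the family ran across both branches, since each branch held 1 member that rose and 1 that fell.

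**Figure D1:**
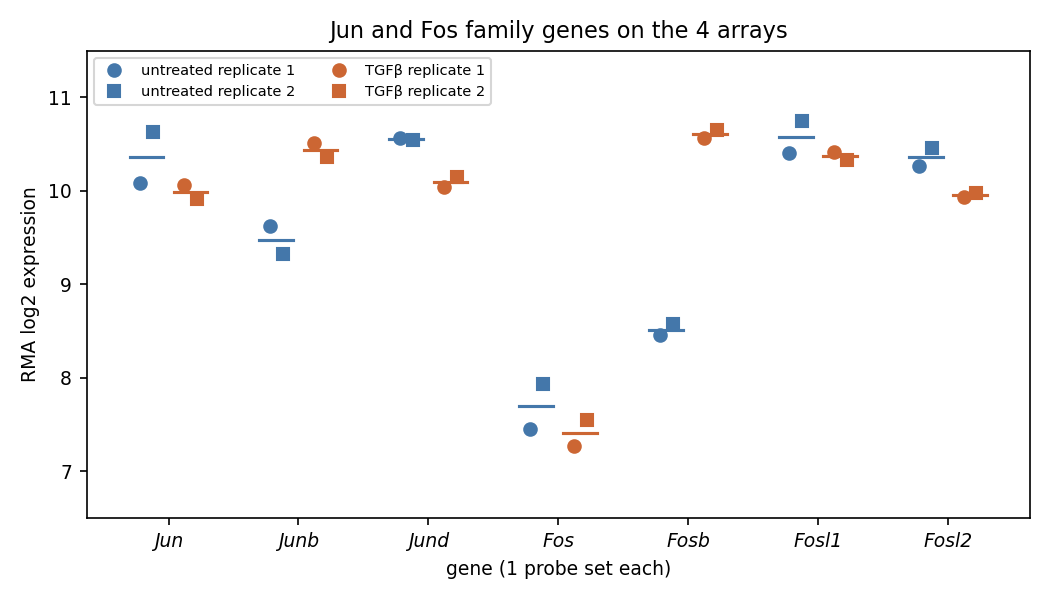
RMA log2 expression (vertical axis) of the 7 Jun and Fos genes on each array, with untreated arrays in blue, TGFβ arrays in orange, circles for replicate 1, squares for replicate 2 and a bar at each group mean. Fosb and Junb sit higher in both TGFβ arrays than in both untreated arrays, and untreated replicate 2 is the highest array for Jun, Fos, Fosl1 and Fosl2.

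Fosb, a Fos protein with a strong activation domain and a truncated splice form, had the largest difference in the family. Its untreated arrays read 8.46 and 8.57 and its TGFβ arrays 10.57 and 10.65. The groups lay apart by at least 2.00, while the arrays of a group differed by 0.11 and 0.08. The fitted log2 difference was 2.09 ± 0.08 (SE), with a 95% interval of 1.89 to 2.29 and an adjusted p of 0.000255 in limma. It was the 138th largest difference in size among the 19938 genes. The gene's single value does not separate its splice forms. Fosb passed in all 14 alternative treatments of the data, with differences from 2.04 to 2.15 and adjusted p from 2.05e-05 to 0.0049.

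Junb, a Jun protein that is a weaker activator than Jun and can counter it, was the other member to rise. It read 9.62 and 9.32 in untreated arrays and 10.51 and 10.36 in TGFβ arrays. Both TGFβ arrays were above both untreated arrays, by at least 0.74. The difference was 0.96 ± 0.12 (SE; 95% interval 0.67 to 1.26, adjusted p = 0.00632). The intervals of Fosb and Junb do not overlap those of the other 5 members. Without 1 array at a time the Junb difference ranged from 0.82 to 1.11 and the call was kept each time. It was lost only against a minimum log2 difference of 0.5 (limma's treat, adjusted p = 0.13), among 14 alternatives with adjusted p from 0.00168 upward.

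Jund, the Jun protein with the steadiest expression and a brake on proliferation in many cells, was lower after TGFβ. Its untreated arrays read 10.56 and 10.54, the closest pair of untreated values in the family, and its TGFβ arrays 10.04 and 10.15. The groups did not overlap. The difference was -0.46 ± 0.08 (SE; 95% interval -0.65 to -0.27, adjusted p = 0.0163). With untreated replicate 1 left out the difference was -0.45 and with replicate 2 left out -0.47, and neither passed (adjusted p = 0.0832 and 0.0688). Leaving out TGFβ replicate 1 also ended the call (-0.40, adjusted p = 0.0627), while leaving out TGFβ replicate 2 did not (-0.52, adjusted p = 0.0281). It passed in 8 of 14 alternatives, with adjusted p from 0.0133 to 1.

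Fosl2, which encodes Fra-2, read 10.27 and 10.46 in untreated arrays and 9.93 and 9.98 in TGFβ arrays. Both TGFβ values were lower than both untreated ones, by at least 0.29. The difference was -0.41 ± 0.09 (SE; 95% interval -0.64 to -0.18, adjusted p = 0.0399). The call did not survive leaving out any single array, with -0.51 (adjusted p = 0.0515) and -0.31 (adjusted p = 0.172) without untreated replicates 1 and 2, and -0.38 (adjusted p = 0.13) and -0.43 (adjusted p = 0.0862) without TGFβ replicates 1 and 2. It passed in 6 of 14 alternatives, with adjusted p from 0.0338 to 1. Without untreated replicate 1 neither Jund (-0.45) nor Fosl2 (-0.51) kept its call, and the only member called lower there was Jun (-0.64). Jun was not called with all arrays. Without TGFβ replicate 2 the only member called lower was Jund (-0.515). Without untreated replicate 2 or TGFβ replicate 1 no member was called lower. Fosb and Junb were called higher whichever array was left out. Over all genes, fewer were called in each of these fits than with all arrays.

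**Figure D2:**
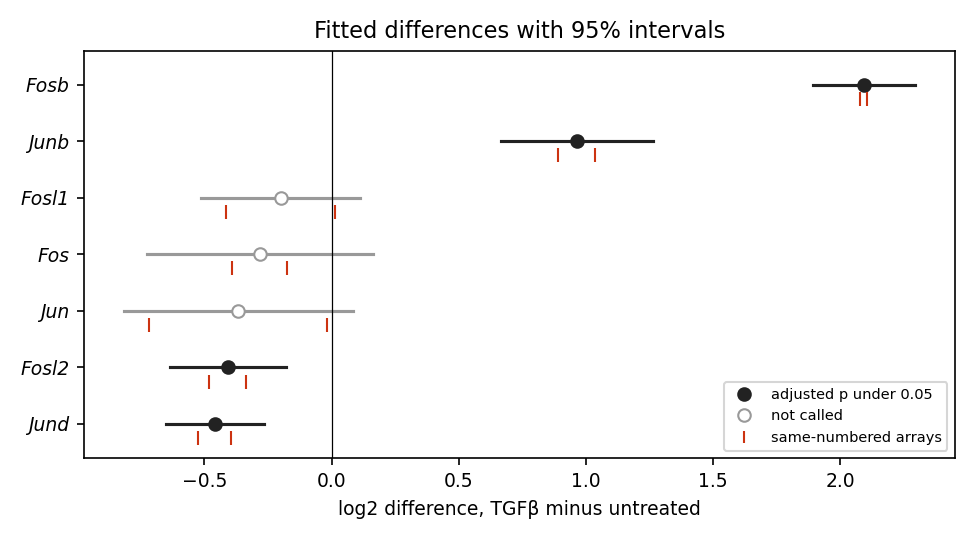
Fitted log2 difference, TGFβ minus untreated (horizontal axis), of each Jun and Fos gene with its 95% interval. Filled points passed at an adjusted p under 0.05, open points did not, and red ticks give the differences between arrays with the same replicate number. Fosb and Junb lie to the right of 0, and the intervals of Fosl1, Fos and Jun cross 0.

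Jun, the founding member and the strongest activator of its branch, was not called. It read 10.08 and 10.63 in untreated arrays and 10.07 and 9.92 in TGFβ arrays. The lower untreated array was above the TGFβ arrays by only 0.02, and the untreated arrays differed from each other by 0.55. The difference was -0.37 ± 0.18 (SE; 95% interval -0.82 to 0.08, adjusted p = 0.29). Its size depended on which untreated array was used, being -0.64 without untreated replicate 1, where it passed (adjusted p = 0.0343), and -0.09 without untreated replicate 2 (adjusted p = 0.802). Without TGFβ replicates 1 and 2 it was -0.44 (adjusted p = 0.354) and -0.29 (adjusted p = 0.542).

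Fos, the partner of Jun in the classical dimer, read 7.45 and 7.94 in untreated arrays and 7.27 and 7.55 in TGFβ arrays. The groups overlapped, and the untreated arrays differed by 0.49. The difference was -0.28 ± 0.18 (SE; 95% interval -0.73 to 0.16, adjusted p = 0.43). It ranged from -0.53 to -0.04 without 1 array at a time and passed in 0 of 14 alternatives.

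Fosl1, which encodes Fra-1, read 10.40 and 10.75 in untreated arrays and 10.42 and 10.33 in TGFβ arrays. One TGFβ array was above the lower untreated array, so the groups overlapped. The difference was -0.20 ± 0.13 (SE; 95% interval -0.51 to 0.11, adjusted p = 0.422). The interval leaves out a rise of more than 0.11 and a fall of more than 0.51 on the log2 scale. Fosl1 passed in 0 of 14 alternatives, and its difference was -0.37 without untreated replicate 1 and -0.03 without untreated replicate 2.

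**Figure D3:**
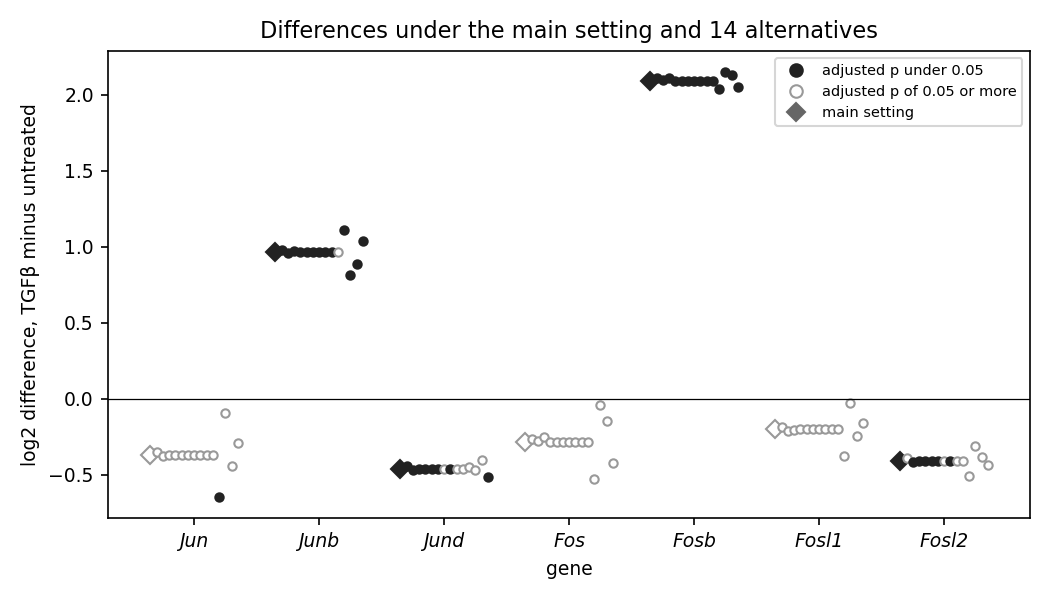
Log2 difference, TGFβ minus untreated (vertical axis), of each gene under the main setting (diamond) and 14 alternatives (circles), filled where the adjusted p was under 0.05. Fosb was filled at every setting, whereas Fos and Fosl1 were open at every setting and Jun was filled at 1.

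The spread between untreated arrays touched several members at once. Untreated replicate 2 was above replicate 1 in 5 of the 7 members, with a median difference of 0.20, the exceptions being Junb and Jund. Among 31 serum response and immediate early genes, 24 were higher in untreated replicate 2 (median 0.12), against 9972 of all 19938 genes. Egr1, an immediate early zinc finger factor, read 8.18 and 8.94 in untreated arrays, and Dusp1, a phosphatase that inactivates MAP kinases, read 10.08 and 10.59. In TGFβ arrays 4 members and 14 of the 31 immediate early genes were higher in replicate 2. The part of this spread in the results for Jun, Fos, Fosl1 and Fosl2 was not tested.

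For each called member, the 3 genes of most similar pattern were sought among 10363 genes with a mean of at least 7, by the Euclidean distance over the 4 arrays between log2 deviations from the untreated mean. Nearest to Fosb were Plxna4 (distance 0.13, difference 2.15), Myo7a (0.15, 2.11) and Itga5 (0.20, 2.13). Nearest to Junb were Birc3 (0.04, 0.94), Atp10d (0.07, 0.94) and Bbs4 (0.07, 0.99). For Jund they were Osbpl9, Hcfc2 and Pttg1ip, all within 0.03, and for Fosl2 Ero1b, Dusp3 and Nrg2, all within 0.05. With 4 arrays in 2 groups, many genes share a pattern, and the distances only describe it.

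The other proteins of the AP-1 network were read from gene lists. Of 21 measured leucine zipper proteins that can join or compete with Jun and Fos, 3 rose, 1 fell and 17 did not pass (median 0.05). The share called was 19%, near the 13.6% of all genes. Maff, a small Maf protein without an activation domain, rose by 0.94, from 8.89 and 8.91 to 9.87 and 9.80. Its relative Maf rose by 0.78, and Jdp2, a partner of Jun proteins that represses AP-1 sites, rose by 0.70 from 8.30 and 8.32 to 9.06 and 8.95 (adjusted p = 0.0042). Nfe2l2, which encodes Nrf2, fell by 0.73. Atf3 differed by 0.09 and Batf3 by -0.02, both with overlapping groups. Without TGFβ replicate 1, 2 of these genes fell.

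Kinases and phosphatases that act on Jun and Fos went both ways. Of 25 measured, 4 rose, 6 fell and 15 did not pass (median 0.02). The share called was 40%, against 13.6% of all genes. The MAP kinase phosphatases Dusp4 and Dusp10 rose by 1.48 and 0.93, Map2k1, which encodes the ERK kinase MEK1, rose by 0.86 and Map3k12 rose by 0.41. Map3k5, which encodes the stress kinase ASK1, fell by 1.48, and Rps6ka5, which encodes MSK1, a kinase of histones and CREB at immediate early promoters, fell by 1.46. Map3k1 fell by 0.84 and Dusp1 fell by 0.83. The JNK genes Mapk8 and Mapk9 differed by 0.45 (adjusted p = 0.0661) and 0.31 (adjusted p = 0.0767), and the JNK kinase gene Map2k4 by -0.14. Map3k12 was not called without any one of the arrays (adjusted p = 0.0638 to 0.112). With untreated replicate 2 left out Dusp1 differed by -0.58 (adjusted p = 0.106), with TGFβ replicate 1 left out by -0.66 (adjusted p = 0.146), and neither passed. Mapk8 passed without TGFβ replicate 2 (0.60, adjusted p = 0.0337). Without TGFβ replicate 1 the list had 3 falls and without untreated or TGFβ replicate 2 it had 4.

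Of 10 regulators of Jun and Fos protein stability, 0 rose and 0 fell in limma, with 3 at an unadjusted p under 0.05. Over all genes 13.6% were called. Fbxw7 and Cop1, ubiquitin ligase components that target Jun, differed by 0.26 and -0.13. The largest difference in the list was that of Trib2, a pseudokinase that recruits a ubiquitin ligase. It read 7.99 and 7.70 in untreated and 6.43 and 7.24 in TGFβ arrays, groups that did not overlap (-1.01, adjusted p = 0.0598). Without TGFβ replicate 2, 1 member fell.

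Immediate early genes and their regulators did not move as one. Of 31 measured, 5 rose, 6 fell and 20 did not pass (median 0.08). The share called was 35.5%, against 13.6% of all genes. Arc rose by 1.38, Maff by 0.94, Mrtfa, a coactivator of serum response factor, by 0.86 and Csrnp1 by 0.78. The antiproliferative Btg2 and the epithelial factor Klf4 both fell by 1.02, Dusp1 fell by 0.83 and the mRNA decay factor Zfp36 fell by 0.78. Srf itself differed by -0.02, Egr1 by -0.43 and Myc by 0.20 without passing. Without 1 array at a time Egr1 ranged from -0.81 (untreated replicate 1 left out) to -0.05 (untreated replicate 2 left out), and Myc from 0.09 to 0.31 with the same arrays left out. Csrnp1 failed to pass when TGFβ replicate 1 was left out (0.76, adjusted p = 0.0602), as did Dusp1 when untreated replicate 2 or TGFβ replicate 1 was left out (adjusted p = 0.106 and 0.146). The list thus held rises and falls beside the rises of Fosb and Junb.

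Of 23 measured genes listed as meeting AP-1 at regulatory sites, 5 rose, 2 fell and 16 did not pass (median 0.14). The share called was 30.4%, against 13.6% of all genes. Tead2, a DNA-binding partner of Yap and Taz, rose by 1.64, the inhibitory Smad gene Smad7 by 0.99, Nfatc2, whose product binds DNA together with AP-1, by 0.95 and the chromatin remodelling subunit Smarcd1 by 0.68. Smad3 rose by 0.37 (adjusted p = 0.0457) and was not called without any one array (adjusted p = 0.0834 to 0.208). Tead3 fell by 0.41 and Tead4 fell by 0.39. Leaving out untreated replicate 1 or 2 ended the Nfatc2 call (0.97 and 0.94, adjusted p = 0.0637 and 0.0641), and leaving out untreated replicate 1 ended that of Smarcd1 (0.62, adjusted p = 0.0637). Tead3 was kept only without TGFβ replicate 1 (otherwise adjusted p = 0.0852 to 0.115), and Tead4 was lost without each array (adjusted p = 0.0693 to 0.157). The counts were 2 and 0 without untreated replicate 1, 3 and 0 without untreated replicate 2, and 5 and 0 without TGFβ replicate 2.

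Of 29 measured genes often read as AP-1 targets, 11 rose, 4 fell and 14 did not pass, with a median of 0.33 (13.6% of all genes were called, with a median of 0.0097). The cytokine Il11 read 6.38 and 6.59 in untreated and 11.92 and 11.51 in TGFβ arrays, a rise of 5.23 from below the array median. The collagenase Mmp13 rose by 3.09, from 8.76 and 7.77 to 10.32 and 12.39, and the stromelysin Mmp10 by 1.92, from 9.83 and 9.19 to 10.77 and 12.10. Vegfa, an angiogenic factor, rose by 1.48 and Plaur, the urokinase receptor, by 0.82. The endothelin precursor Edn1 fell by 1.16 to a level under 7, the membrane linker Ezr fell by 0.72, the receptor Met fell by 0.57 and the cyclin Ccnd1 fell by 0.37. Cd44 differed by -0.28 and Hmga2 by 0.09 without passing.

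Several target calls were lost when 1 array was left out, in fits with fewer degrees of freedom that also called fewer of all genes. With untreated replicate 1 left out, Mmp13 differed by 3.59 (adjusted p = 0.0502) and Mmp10 by 2.24 (adjusted p = 0.0563). With untreated replicate 2 left out they differed by 2.60 (adjusted p = 0.114) and 1.61 (adjusted p = 0.128). Leaving out a TGFβ array moved them furthest while both calls were kept, to 4.13 and 2.59 without replicate 1 and to 2.06 and 1.26 without replicate 2. With an intensity trend and robust variances neither gene passed (adjusted p = 0.242 and 0.163). Plaur lost its call when TGFβ replicate 1 was left out (0.79), and Met when replicate 2 of either group was (-0.46 and -0.44). Ccnd1 lost its call whichever array was left out, although its difference stayed between -0.37 and -0.36. The 11 rises became 7 and 6 without untreated replicates 1 and 2, and the 4 falls became 2 without untreated replicate 2 or TGFβ replicate 2. Whether these genes respond to Fosb or Junb was not measured.

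**Figure D4:**
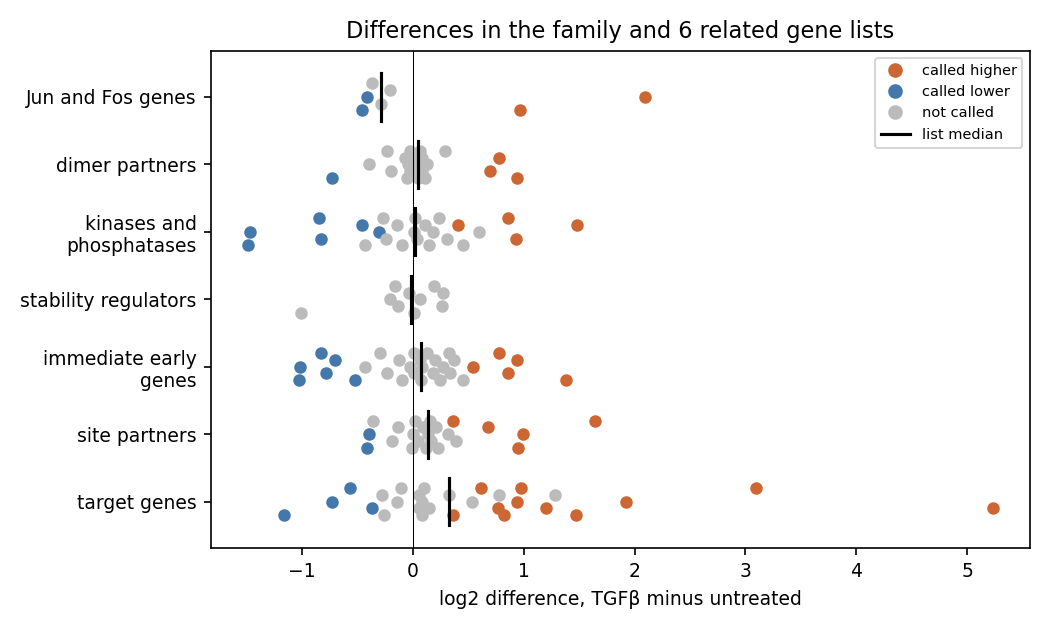
Log2 difference, TGFβ minus untreated (horizontal axis), of the Jun and Fos genes and of 6 related gene lists, 1 point a gene, orange where called higher, blue where called lower and grey where not called, with a black line at each list's median. The medians lie between -0.28 for the family and 0.33 for the target genes.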

How the data were processed

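Total RNA of 4 Py2T cultures was measured on Affymetrix arrays. The authors made the deposited log2 values per probe set with RMA in the R package oligo, per the submitters' processing notes. For the oligo version, probe-set annotation and genome build: not given in the sources used here. No detection calls were used. RMA shares information across arrays and compresses differences near background and at the top of the range. Of 35556 probe sets, 21789 carry 1 symbol, 1621 several and 12146 none. For each of 19938 genes the brightest single-symbol probe set was kept.

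Untreated and TGFβ arrays were compared over all genes with limma 3.58.1 in R 4.3.3 (moderated, two-sided, 2 residual and 3.77 prior degrees of freedom, all 4 arrays, no block), with Benjamini-Hochberg adjustment and no further normalization or filter. An exact permutation test of 2 against 2 cannot go below 0.333 and was not used. The number of arrays limits the precision. The procedure was run on simulated data with noise drawn independently for each gene and array. Those data held no shift shared by several genes of an array, and the outcome is not given here.

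Members and lists were chosen with earlier results of these data known. The text names all members, up to 4 called genes per direction from each of 6 lists, 19 genes set by name (Map2k7 was not measured as a single-symbol gene) and the 3 nearest patterns of each called member. Marker genes, Trib2, and Egr1 and Dusp1 values beside the spread of untreated arrays, were picked after their values were seen. Promoters came from RefSeq (GRCm38.p6) and figures were drawn with matplotlib. The 14 alternatives cover scaling, filters, probe-set choice, variance moderation, pairing, a minimum difference and each array left out. The alternative that averages the probe sets of a gene could not change the members' values, since each member has 1 probe set.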

Additional observations from a re-analysis of the deposited data

How the results depend on the processing

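Fosb kept its call under all 14 alternatives and Junb under 13. Testing every probe set gave 608 genes higher and 660 lower and 0 members lower (Jund -0.46, adjusted p = 0.0549, and Fosl2 -0.41, adjusted p = 0.105), with 3 immediate early genes higher, 4 targets higher and 1 lower, 2 site partners higher and 0 lower, and 3 kinases lower. Treat against 0.5 gave 266 higher and 277 lower, 1 and 0 members (Junb 0.96, Jund -0.46, Fosl2 -0.41), 1 and 0 dimer partners, 2 and 2 kinases, 1 and 0 immediate early genes, 3 and 0 targets and 2 and 0 site partners, a test that asks for larger differences by construction. Median centring left 1 member lower (Fosl2 -0.39, adjusted p = 0.0502), 1 stability regulator lower and 1 site partner lower. Cyclic loess and repeated quantile normalization each gave 1 stability regulator higher and 2 dimer partners lower. Under both, Smad3 (adjusted p = 0.0696 and 0.0595 in limma), Dusp1 (0.0578 and 0.0588) and Mmp10 (0.0539 and 0.0509) lost their calls. Without the dimmest 25% or dimmer 50% of genes 1 stability regulator was lower, and without the dimmer 50% also 2 dimer partners. The uncalled Mapk8 passed as higher without the dimmer 50% and under cyclic loess (adjusted p = 0.0487 and 0.0474 in limma). The uncalled Cd44 passed as lower under cyclic loess and repeated quantile normalization (adjusted p = 0.0459 and 0.0457 in limma). With an intensity trend and robust variances both passed (Mapk8 adjusted p = 0.0498, Cd44 adjusted p = 0.0341 in limma).

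With the replicate number as a block, 785 genes were higher and 839 lower, with 0 members lower (Jund adjusted p = 0.0527, Fosl2 adjusted p = 0.0705), 7 targets higher and 2 lower, and 3 site partners higher and 0 lower. The deviations of same-numbered arrays had a correlation of -0.21 over genes, and those of crossed numbers 0.21. With 2 arrays in a group these values mirror each other by construction. They cannot show whether the samples were paired, which the labels do not state. A crossed pairing, added after seeing the data, gave 1683 higher and 1957 lower, with 7 kinases higher, 2 dimer partners lower and 1 stability regulator lower.

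Leaving out 1 array at a time, genes called ranged from 740 to 1167 higher and 751 to 1093 lower, and members lower from 0 to 1. Targets ranged from 6 to 10 higher and 2 to 3 lower, site partners from 2 to 5 and 0 to 2, kinases lower from 3 to 5, dimer partners lower from 1 to 2 and stability regulators lower from 0 to 1. The differences ranged from -0.643 to -0.0925 for Jun, -0.52 to -0.40 for Jund and -0.51 to -0.31 for Fosl2. The uncalled Atf3 (-0.19 to 0.36, negative at -0.02 without untreated replicate 1 and -0.19 without TGFβ replicate 2), Batf3 (-0.091 to 0.0423) and Srf (-0.26 to 0.22, positive at 0.10 without untreated replicate 2 and 0.22 without TGFβ replicate 2) changed sign. The cause of these changes was not tested.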
